A study of Mus musculus with 6 samples.

Results

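In the liver of mice that lack Vps15, 96 protein-coding genes that gave next to no reads in the WT livers were read in each of the 3 mutant livers. They were chosen from the measured values themselves, as the protein-coding genes of the GENCODE M21 annotation with a normalized count of at most 3 in each of the 3 WT livers and of at least 20 in each of the 3 Vps15LKO livers. They make up 96 of 21974 protein-coding genes (0.437%) in a table of 56305 genes, and 1.29% of the 7453 protein-coding genes that were at most 3 in every WT liver. Because the genotype difference chose them, their levels and fold changes are given as a description and no test of them is offered.

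RNA was sequenced from whole liver of 5-week-old male mice fed ad libitum and collected at ZT6, which is 6 h after lights on, with 1 library per mouse. The Vps15LKO mice were AlbCre+;Vps15 f/f, in which Cre driven by the albumin promoter deletes a floxed part of Vps15 in albumin-expressing cells from early life onwards. Which cell types of the liver carried the deletion was not measured in these data. The WT mice were the controls of this line, whose own Cre and flox alleles are not given in the sources used here. Nothing in the labels ties a replicate number to a litter or a day. Pik3r4, which encodes Vps15, was counted in every liver. Its normalized counts were 508, 573 and 460 in WT against 341, 362 and 355 after deletion, a log2 fold change of -0.54 (SE 0.11, adjusted p = 0.0021, limma with Benjamini-Hochberg adjustment), which turned to 0.19 when the libraries were scaled to equal totals of reads. The deleted part of Pik3r4 was not counted apart from the rest.

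Vps15 is the regulatory subunit of class 3 PI3K, the lipid kinase that makes PI3P on endosomes and on forming autophagosomes. In hepatocytes autophagy clears damaged proteins, mitochondria and the adaptor p62, and p62 that accumulates is known to bind Keap1, the protein that holds the transcription factor Nrf2 in check. A gene that is silent in the adult liver can be silent because hepatocytes keep it off, or because the cell type that uses it is rare there. In bulk liver, RNA from more cells of a type and more RNA per cell cannot be told apart, and this holds for each gene below.

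The libraries held 16137093 to 18110223 reads on genes. The deposited values are counts divided by a size factor per library, so that a single read stood for 1.25 to 1.35 in a WT library but for 0.707 to 0.810 in a Vps15LKO library. Hence the limit of 3 allowed at most 2 reads in a WT library and the limit of 20 asked for 25 to 29 reads in a Vps15LKO library. Of the 96 genes, 26 had 0 reads in all 3 WT libraries, the median gene had 2 WT reads over the 3 libraries together, and the highest total was 6. All 96 passed the filter on low values (at least 20 in at least 3 libraries) and were called higher in Vps15LKO liver by limma, beside 33.5% of all 15430 genes tested (33.0% were called lower). Genes counted as called passed both 0.05 for the adjusted p and 1.2 for the fold. In 36.4% of all tested genes the 3 Vps15LKO values lay above the 3 WT values, as the rule required of each of the 96. The rule used this contrast, so nothing is read from either count.

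**Figure D1:**
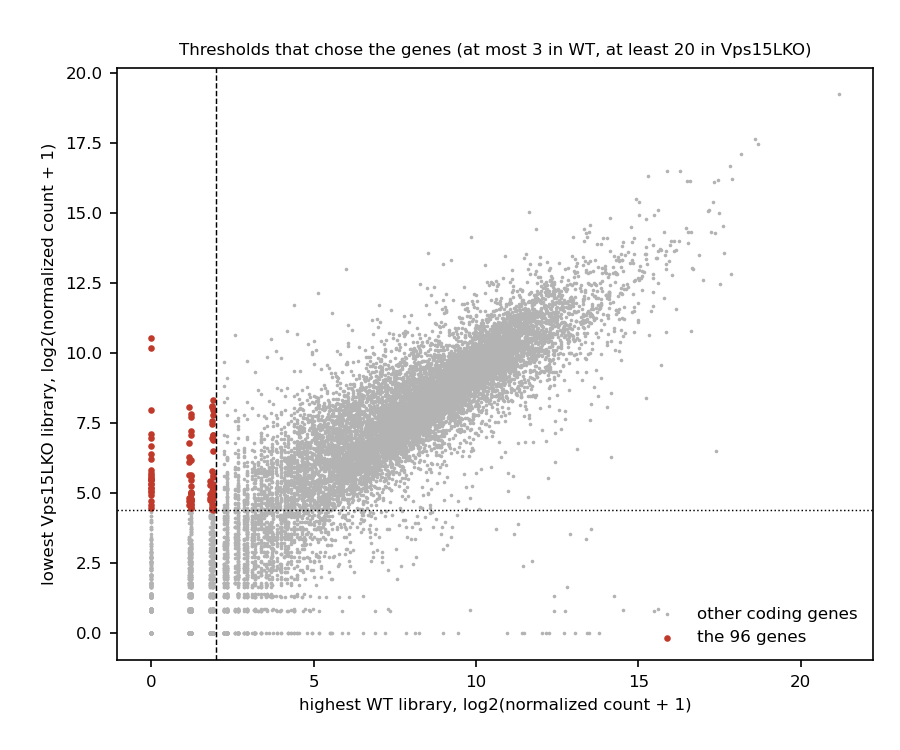
Each point is a protein-coding gene, with its highest WT library on the horizontal axis and its lowest Vps15LKO library on the vertical axis, both as log2(normalized count + 1). The 96 genes (red) fill the corner left of the dashed line at 3 and above the dotted line at 20, and grey points lie close on the far side of both lines.

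Just inside, Jag2, a ligand of Notch receptors, had 32.1, 20.3 and 60.8 normalized counts in the Vps15LKO livers and Arc, a synaptic gene, had 35.9, 21.1 and 23.3. Just outside on the mutant side, Calr4 had 19.9, 20.3 and 23.3 and Pak3, a kinase of the cytoskeleton, had 19.9, 21.9 and 35.4. Just outside on the WT side, Spire2, an actin nucleator, had 1.33, 3.75 and 2.70 in WT and 135, 143 and 140.0 in Vps15LKO livers, and 76 protein-coding genes in all were at least 20 in each Vps15LKO liver with a highest WT value between 3 and 5. Each value of Spire2 in the Vps15LKO livers lay above the median level of the genes inside the thresholds, 49.9.

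The 96 genes were mostly at low levels in Vps15LKO liver. Their mean of the 3 mutant livers ranged from 24.4 to 1857 with a median of 49.9 normalized counts, and 2 genes reached 1000, 25 lay between 100 and 1000, 21 between 50 and 100, and 48 under 50. Together they held 0.0826% of the normalized counts of the Vps15LKO libraries. Per kb of exon, the scale on which genes can be compared with each other, their median level was 20.1 against 73.0 over the 13171 protein-coding genes tested, and 16 of the 96 lay above that median.

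**Figure D2:**
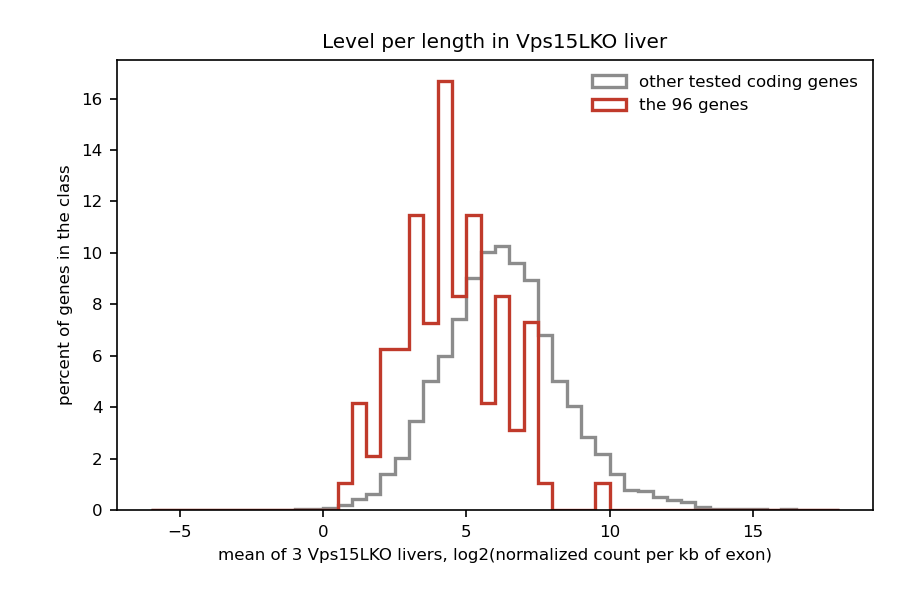
Distribution of the mean level in the 3 Vps15LKO livers, as log2 of normalized counts per kb of exon, for the 96 genes (red) and the other tested protein-coding genes (grey), in percent of each class. The red curve peaks to the left of the grey curve, and the isolated red step at the right is Tekt5, at 729 per kb. The median was 20.1 normalized counts per kb for the 96 genes and 73.0 over all 13171 tested protein-coding genes, the 96 included.

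Slc7a11 gave the most counts of the 96. It encodes xCT, the cystine-glutamate antiporter that brings in cystine for glutathione synthesis, and lies on the minus strand of chromosome 3 from 49892526 to 50443614 of GRCm38. It had 0 reads in each WT liver and 1814, 1489 and 2269 normalized counts in the Vps15LKO livers (mean 1857 ± 392, SD, n = 3). Set against a floor of 3 reads per WT library, which is 3.92 normalized counts, the level was at least 473-fold higher. Its promoter window (250 bases before to 50 after the RefSeq transcription start, build GRCm38.p6, chr3:50443564-50443863, minus strand) is shown because it holds 2 copies of TGATGNAA, the part of the composite element read by ATF4, on opposite strands. The capitals mark both, TGATGCAA with its first base 66 bases before the start and TTGCATCA 47 bases before it.
Slc7a11: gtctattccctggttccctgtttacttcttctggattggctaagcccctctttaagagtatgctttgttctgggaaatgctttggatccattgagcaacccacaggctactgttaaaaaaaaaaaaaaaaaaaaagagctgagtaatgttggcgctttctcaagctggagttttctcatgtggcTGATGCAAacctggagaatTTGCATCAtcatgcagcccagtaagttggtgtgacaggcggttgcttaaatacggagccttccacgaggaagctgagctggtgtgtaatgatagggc
A match of TGATGNAA on either strand was in 3.40% of the 20139 promoter windows of protein-coding genes. A match is a description of the letters and not of binding.

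Genes that serve the same supply line were also among the 96. Slc1a1, a high-affinity transporter of glutamate and cysteine, had 0, 1.25 and 0 normalized counts in WT and 391, 345 and 271 in Vps15LKO livers, although 31.9% of its exon bases are shared with 4430402I18Rik on the other strand. Ggt1, the ectoenzyme that begins the breakdown of glutathione outside the cell, had 41.2, 25.9 and 34.7 in Vps15LKO livers and 1 WT read in all. No Vps15LKO liver overlapped a WT liver for these genes, as the rule requires. Slc3a2, the heavy chain that carries xCT to the membrane, was not silent in WT. Its mean ± SD over 3 livers, the form of all such values here, was 953 ± 92.2 in WT against 2863 ± 264 in Vps15LKO, and the log2 fold change was 1.59 (SE 0.11, adjusted p = 7.2e-06, limma). Slc7a2 and Slc1a2, other genes of the 2 transporter families, went the other way, with Slc7a2, a carrier of cationic amino acids, at a log2 fold change of -1.88 (adjusted p = 0.0003, limma) and Slc1a2, the main glutamate carrier of hepatocytes around the central vein, at -4.18 (adjusted p = 3.5e-06, limma).

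Outside the 96, 24 further genes from a list of Nrf2 targets and cystine uptake were tested, and 19 were called higher, 1 lower and 4 neither. Nqo1, a quinone reductase, was 127 ± 19.8 in WT and 1539 ± 187 in Vps15LKO liver. Srxn1, sulfiredoxin, had a log2 fold change of 4.41 and Cbr3, a carbonyl reductase, 7.67. Me1, malic enzyme, was the 1 called lower, at -1.33. The median log2 fold change of the 24 was 1.37, beside -0.02 for all genes tested. Of 21 tested genes from a list of ATF4 stress targets other than the member Stc1, 17 were called higher and 2 lower, with a median of 1.30; Psat1, an enzyme of serine synthesis, had a log2 fold change of 4.83 and Cth, which makes cysteine from cystathionine, -1.91.

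Tekt5, a tektin that builds the filaments of sperm flagella, had 0 reads in each WT liver and 1405, 1161 and 1386 normalized counts in the Vps15LKO livers, at least 336-fold higher. It lies on chromosome 16 from 10357948 to 10395490, and at 729 normalized counts per kb it was the most abundant of the 96 per length, above 93.4% of the tested protein-coding genes. None of the other tektin genes passed the thresholds (1 of 5). Tekt2 had 1.33, 2.50 and 0 in WT and 3.05, 2.43 and 9.90 in Vps15LKO livers. Of 18 other testis and meiosis markers 6, among them Tekt3, Tnp1 and Acrv1, were at 0 in all 6 livers, and Sycp3, the 1 of its other genes that could be tested, was called lower with a log2 fold change of -3.00. The part of germ cells in the level of Tekt5 was not tested. Beside Tekt5, Cfap44, a protein of motile cilia, had 32.1, 30.8 and 33.2 in Vps15LKO livers, and Coro6, a coronin that binds actin, had 192, 135 and 200.2.

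The Serpinb9 cluster on chromosome 13 gave 6 of the 96, every Serpinb9 gene apart from Serpinb9 itself. Serpinb9 proteins are intracellular inhibitors of serine proteases, and mouse Serpinb9 itself protects cells from granzyme B. Serpinb9e was the highest, also per kb (133), with 1.33, 0 and 0 normalized counts in WT and 321, 211 and 233 in Vps15LKO livers. Serpinb9g had 145, 126 and 130.1, Serpinb9f had 105, 83.5 and 138, Serpinb9b had 55.7, 43.8 and 77.8, Serpinb9d had 42.8, 51.9 and 48.1, and Serpinb9c had 35.1, 58.3 and 44.6 in the Vps15LKO livers. Each of these 5 had 0 reads in every WT liver. The genes that flank them in the cluster were not all alike: Serpinb9 was already 228 ± 24.7 in WT and reached 648 ± 17.2 (log2 fold change 1.51, adjusted p = 7.9e-06, limma), and Serpinb6b went from 51.1 ± 6.42 to 1106 ± 108 (4.41, adjusted p = 2.0e-07). Serpinb6d and Serpinb6e, which follow Serpinb9g, stayed at 0 in all 6 livers, and Serpinb1a had 99.4, 48.7 and 44.5 in WT against 30.5, 38.9 and 24.8 in Vps15LKO livers.

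The promoter windows of 4 of these genes are nearly the same sequence, which is why they are shown. They come from RefSeq (GRCm38.p6, plus strand) at chr13:33249358-33249657 for Serpinb9e, chr13:33192705-33193004 for Serpinb9d, chr13:33323827-33324126 for Serpinb9f and chr13:33484540-33484839 for Serpinb9g. Capitals in the last 3 mark bases that differ from Serpinb9e where the windows align.
Serpinb9e: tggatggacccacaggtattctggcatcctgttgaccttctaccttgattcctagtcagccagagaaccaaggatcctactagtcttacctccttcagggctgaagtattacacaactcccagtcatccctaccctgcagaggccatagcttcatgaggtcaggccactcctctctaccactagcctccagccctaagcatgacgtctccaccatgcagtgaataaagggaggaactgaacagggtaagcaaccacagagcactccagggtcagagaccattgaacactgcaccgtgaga
Serpinb9d: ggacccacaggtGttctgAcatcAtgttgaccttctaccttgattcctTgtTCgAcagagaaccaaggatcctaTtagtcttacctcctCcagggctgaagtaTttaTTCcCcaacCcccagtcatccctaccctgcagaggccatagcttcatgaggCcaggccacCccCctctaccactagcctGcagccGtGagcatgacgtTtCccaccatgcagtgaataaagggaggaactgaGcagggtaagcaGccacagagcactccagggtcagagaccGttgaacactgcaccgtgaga
Serpinb9f: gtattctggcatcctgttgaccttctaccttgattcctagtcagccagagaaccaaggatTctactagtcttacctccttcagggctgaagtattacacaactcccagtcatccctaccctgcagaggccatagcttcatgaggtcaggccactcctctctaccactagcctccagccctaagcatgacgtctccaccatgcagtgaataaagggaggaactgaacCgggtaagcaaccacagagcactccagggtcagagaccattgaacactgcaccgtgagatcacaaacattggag
Serpinb9g: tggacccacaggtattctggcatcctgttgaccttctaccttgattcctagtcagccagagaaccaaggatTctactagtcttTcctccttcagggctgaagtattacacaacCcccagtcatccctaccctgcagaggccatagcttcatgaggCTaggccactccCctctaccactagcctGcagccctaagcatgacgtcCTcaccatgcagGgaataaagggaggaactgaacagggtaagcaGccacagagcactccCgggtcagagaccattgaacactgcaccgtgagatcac
Over the aligned bases Serpinb9e was 99.3% identical to Serpinb9f, 95.9% to Serpinb9g and 91.3% to Serpinb9d. The transcripts resemble each other as well. Of all windows of 100 bases in the annotated transcripts, 52.3% of those of Serpinb9f and 38.5% of those of Serpinb9g occur unchanged in another gene, most often Gm11397, against 10.1% for Serpinb9e and 7.21% for Serpinb9d. How the counting treated reads with several matches is not stated, so the split of the counts among these genes is uncertain.

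The Sult2a genes of chromosome 7 showed levels in opposite directions within 1 cluster. These enzymes add sulfate to steroids and bile acids. Sult2a2 had 0, 0 and 2.70 normalized counts in WT and 122, 107 and 90.5 in Vps15LKO livers, Sult2a1 had 53.5, 51.1 and 49.5 in Vps15LKO livers, and Sult2a5 had 50.4, 41.3 and 30.4. Sult2a6, with 0 reads in WT and 26.7, 25.1 and 15.6 in Vps15LKO livers, missed the threshold through 1 liver. Sult2a8, a few genes along, was abundant in WT with 18388, 18173 and 17490 and had 149, 531 and 76.4 in Vps15LKO livers, a log2 fold change of -6.62 (SE 0.57, adjusted p = 2.0e-05, limma). Sult2a7 was 46.4, 32.5 and 21.6 in WT and at most 1.53 in Vps15LKO livers. Of the transcript windows of 100 bases, 34.6% for Sult2a2, 16.6% for Sult2a5 and 11.4% for Sult2a1 occur in another gene, in each case mostly one of these 3. The cholesterol sulfotransferase Sult2b1 was also among the 96, so that 4 of 21 sulfotransferase genes (19.0%) and 6 of 61 serpin genes (9.84%) belonged to the group, against 0.437% of all protein-coding genes. Of 37 gene families counted 19 held no member, among them the Zfp zinc fingers, collagens and claudins, and solute carriers held 2 of 371 (0.539%).

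**Figure D3:**
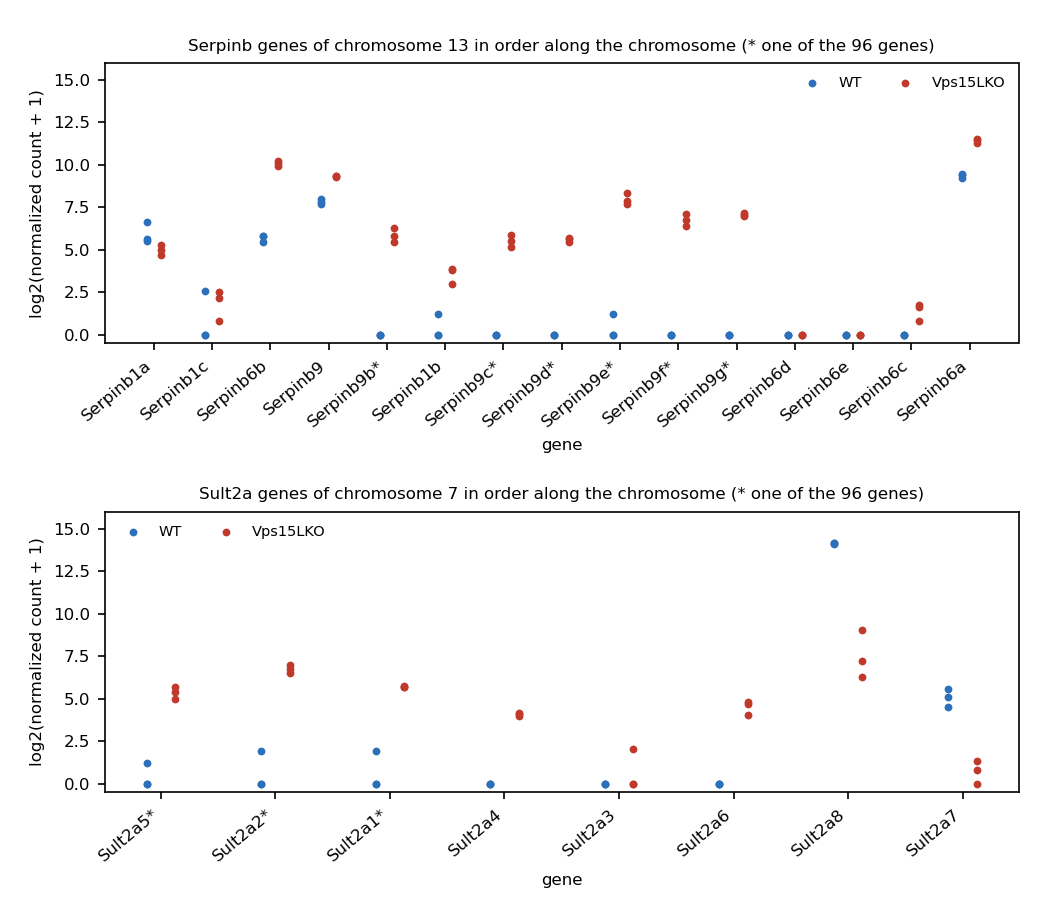
Protein-coding genes of the Serpinb cluster (top) and the Sult2a cluster (bottom) in their order along the chromosome, with log2(normalized count + 1) of each WT (blue) and Vps15LKO (red) liver as a point. The starred genes are among the 96; Serpinb9b to Serpinb9g are at or near 0 in WT, while Sult2a8 has means of 18017 in WT and 252 in Vps15LKO.

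Keratins formed another small group. Krt5, the keratin of basal epithelial cells, had 0 reads in every WT liver and 267, 252 and 330 normalized counts in Vps15LKO livers, at least 72.1-fold higher. Krt20, known from gut and bladder epithelium, had 59.6, 47.8 and 90.5, and Krt17, a keratin of injured epidermis, had 48.9, 32.4 and 42.4. These were 3 of 53 keratin genes (5.66%). Krt8, a keratin that hepatocytes make, was 3863 ± 184 in WT against 12112 ± 1157 in Vps15LKO, and its log2 fold change was 1.65 (adjusted p = 7.9e-06, limma). Of the exons of Krt5, 5.87% of the bases are shared with the small RNA gene Gm44323.

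Genes of intestinal and renal epithelium stood beside the keratins. Cdh17, the cadherin of intestinal epithelium, had 229, 227 and 269 normalized counts in Vps15LKO livers and 1 WT read. Myo7b and Ush1c, which act at the tip links between microvilli of the brush border, had 237, 188 and 205 and 53.5, 48.6 and 93.4. Inava, linked to epithelial junctions, had 147, 159 and 185 (32.0% of its exon bases lie opposite Gm26568), Tinag, a protein of renal tubular basement membrane, had 60.3, 64.0 and 55.2, and Muc13, a mucin of the gut, had 23.7, 42.9 and 21.2. Guca2b, the gut hormone uroguanylin, had 66.4, 72.1 and 43.9 with 0 WT reads. Other brush border genes were not members: Vil1, villin, missed through 1 WT liver (1.33, 3.75 and 2.70 in WT; 38.9, 34.0 and 55.9 in Vps15LKO), and Cdhr5 was abundant in both genotypes, at 1951 ± 128 and 1693 ± 238 (adjusted p = 0.14, limma). Cdhr2 met neither threshold, with 3.98, 3.75 and 0 in WT and 19.1, 19.4 and 15.6 in Vps15LKO livers. Of a list of pancreas and gut markers 10, among them Cdx2, Reg3b and Prss1, were at 0 in all 6 livers, and of the 5 tested 2 were called higher and 3 lower, with a median log2 fold change of -0.80.

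Biliary and progenitor markers were measured beside these epithelial genes. Ggt1 is on this list, and of its 16 other tested genes 15 were called higher and none lower, with a median log2 fold change of 3.80. Sox9, which marks bile duct cells, was 101 ± 8.74 in WT and 918 ± 305 in Vps15LKO liver, and Spp1, osteopontin, went from 551 ± 53.4 to 14767 ± 5184. The summed level of the whole list was 4093 to 4267 in WT and 18605 to 32474 in Vps15LKO livers. Hepatocyte markers summed to 3236781 to 3663839 in WT and 987234 to 1454592 in Vps15LKO livers, with 15 of 18 called lower and none higher. Their part in the levels of the 96 genes was not tested.

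Secreted and membrane-bound ligands gave 8 of the 96, and in 2 of them, Apela and Adm2, every WT liver had 0 reads. Apela, a peptide ligand of the apelin receptor, had 179, 172 and 138 normalized counts in Vps15LKO livers, although 29.6% of its exon bases lie in Gm45886. Lif, a cytokine of the interleukin-6 family, had 0, 1.25 and 0 in WT and 91.6, 77.0 and 92.7 in Vps15LKO livers. Il1f9, which encodes interleukin-36 gamma of epithelia, had 168, 127 and 110.3. The peptide hormone Adm2 had 26.7, 26.7 and 25.5, the narrowest spread of all 96 genes, with a coefficient of variation of 2.79%. Stc1, a secreted glycoprotein of calcium handling, had 37.4, 30.8 and 55.9 and Gdf3, a ligand of the TGF-beta family, had 65.7, 42.1 and 50.2. Of 18 tested genes from a list of TNF, interleukin and chemokine ligands other than Lif, 17 were called higher and none lower, among them Ccl2, a monocyte chemoattractant, from 15.3 ± 2.49 to 2152 ± 357 (log2 fold change 7.04, adjusted p = 8.4e-08, limma).

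Surface and granule genes of leukocytes and endothelium made up 10 of the 96, with a median mean level of 44.5 normalized counts beside 49.9 for all 96. Ngp, a granule protein of immature neutrophils, had 102, 154 and 180.4 normalized counts in Vps15LKO livers and 0 reads in WT. Mpo, myeloperoxidase, had 64.1, 51.9 and 51.6, again with 0 reads in WT, although part of its exons lies opposite Gm11505. Tnfrsf9, the costimulatory receptor 4-1BB of activated lymphocytes, had 59.6, 44.6 and 71.4. Fcrls, a receptor of macrophages and microglia, had 22.9, 55.1 and 50.2, and the myeloid receptor Clec5a had 31.3, 38.1 and 60.1. Among the markers outside the 96, the macrophage list had 17 of 19 tested genes called higher and none lower, the neutrophil and granule list 6 of 7, and the lymphocyte list 11 of 13. The whole macrophage list summed to 11131 to 12801 in WT and 48173 to 51930 in Vps15LKO livers. The neutrophil list went from 263 to 616 in WT to 10187 to 17515 in Vps15LKO livers, of which Lcn2, lipocalin 2, held 13542 ± 3764 in Vps15LKO. Without Lcn2, but with the members Ngp and Mpo still in it, that list summed to 101 to 111 in WT and 671 to 857 in Vps15LKO livers. Their part in the levels of the 96 genes was not tested.

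Genes of activated endothelium and of scar-forming cells were present too. Sele, the selectin of inflamed endothelium, had 49.6, 50.2 and 37.5 normalized counts and Madcam1, the addressin of gut venules, had 38.2, 35.7 and 55.9 in Vps15LKO livers. The remaining endothelial markers were mixed, with 7 of 12 called higher and 4 lower. Timp1, a secreted inhibitor of matrix metalloproteinases, had 2.65, 2.50 and 2.70 in WT, 2 reads in each liver, and 161, 135 and 222 in Vps15LKO livers, and at 194 normalized counts per kb it ranked behind only Tekt5 among the 96. All 16 other tested genes of the stellate and fibroblast list were called higher. The whole list, Timp1 included, summed to 7726 to 8243 in WT and 33398 to 39685 in Vps15LKO livers. The part of stellate cells and fibroblasts in the level of Timp1 was not tested. In the matrix remodelling list 19 of 23 others were called higher and 2 lower.

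Cell division contributed 5 genes. The phosphatase Cdc25c, which starts mitosis, had 32.1, 40.5 and 38.2 normalized counts, the spindle protein Troap had 55.0, 58.3 and 84.2, and Ticrr, needed to start replication, had 37.4, 35.7 and 48.1 in Vps15LKO livers. The one with the most counts was Cdkn2b, an inhibitor of the G1 kinases, with 2.65, 2.50 and 0 in WT and 169, 126 and 176 in Vps15LKO livers. Its neighbour Cdkn2a had 0, 0 and 1.35 in WT and 1.53, 6.48 and 10.6 in Vps15LKO livers. All 23 other tested genes of the mitosis list were called higher, with a median log2 fold change of 3.70. WT replicate 3 had a mitosis sum of 1033 against 378 and 465 in the other WT livers.

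Transcription factors numbered 4. Tbx1, known from pharyngeal development, had 80.9, 49.4 and 111 normalized counts, Etv4, an ETS factor induced by ERK, had 55.7, 46.2 and 106.8, Arnt2, a partner of bHLH-PAS proteins, had 45.8, 36.5 and 94.8, and Msc, musculin, had 20.6, 27.6 and 31.8. Each was highest in Vps15LKO replicate 3. Of the 17 other tested genes of the ERK target list 13 were called higher and 1 lower. The whole list summed to 15722 to 24795 in WT and to 10140 to 10883 in Vps15LKO livers. Of these sums Egfr, the receptor of epidermal growth factor, held 8046, 9758 and 22051 in WT and 1335, 2675 and 1567 in Vps15LKO livers. The log2 fold change of Egfr was -2.76. F2rl1, the protease-activated receptor PAR2, gave the most counts of 6 receptors and signalling regulators, with 2.65, 1.25 and 1.35 in WT and 334, 267 and 356 in Vps15LKO livers. Rasal1, which switches Ras off, had 243, 219.6 and 252, and Lrp8, a receptor of reelin and apolipoprotein E, had 226, 174 and 184.

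Genes known from nerve cells were 8 of the 96. Gldn, gliomedin of the node of Ranvier, had 1.33, 1.25 and 2.70 normalized counts in WT and 363, 357 and 318 in Vps15LKO livers. Lrtm2, a leucine-rich membrane protein of neurons, had 390.2, 248 and 276. Cacna1b, the pore of the N-type calcium channel, had 237, 117 and 290.0, so that its livers differed by a factor of 2.47. Of 17 other genes in a list of neuronal markers Nefl, Nefm, Elavl4 and Gria2 were at 0 in all 6 livers, and of the 6 that could be tested 3 were called higher and 2 lower, with a median log2 fold change of 0.42. The whole list, with Cacna1b in it, summed to 533 to 569 in WT and 591 to 757 in Vps15LKO livers. Without Cacna1b, which the rule chose, each Vps15LKO sum lay below each WT sum. The part of the list in these levels was not tested. Among other subunits of voltage-gated calcium channels 6 of 8 were called higher, among them Cacnb3, from 14.1 ± 7.67 to 214 ± 60.1. The 1 called lower was Cacna1d, the pore of an L-type channel, at a log2 fold change of -0.65, which was 0.077 after scaling to equal totals of reads.

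Among the remaining enzymes and secreted proteins, Wfdc3, a whey-acidic-protein domain protein related to protease inhibitors, was the fourth of the 96 by counts with 2.65, 0 and 0 normalized counts in WT and 316, 278 and 434 in Vps15LKO livers. Rnase1, a secreted pancreatic-type ribonuclease, had 122, 72.9 and 206. Spink1, an inhibitor of trypsin that liver tumours also make, had 58.8, 68.9 and 46.7 with 0 reads in WT. It was on a list of fetal liver genes, whose 13 other tested genes were all called higher, and Afp, alpha-fetoprotein, went from 41.7 ± 18.8 to 12081 ± 3678 (log2 fold change 8.18, adjusted p = 4.2e-07, limma). Cyp21a1, the steroid 21-hydroxylase of the adrenal cortex, had 139.7, 135 and 164 in Vps15LKO livers. Ptgs2, the inducible cyclooxygenase, had 51.2, 47.0 and 27.6. With Pcyt1b, an enzyme of phosphatidylcholine synthesis, and Fa2h, which hydroxylates fatty acids, they were among 8 steroid, prostaglandin and lipid enzymes whose means ran from 28.9 to 146. A further 15 genes were not put in a group by role, with means from 24.4 to 128, and 13 of these were highest in Vps15LKO replicate 3. Members described here beyond the rule for named genes were chosen after their values were seen.

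**Figure D4:**
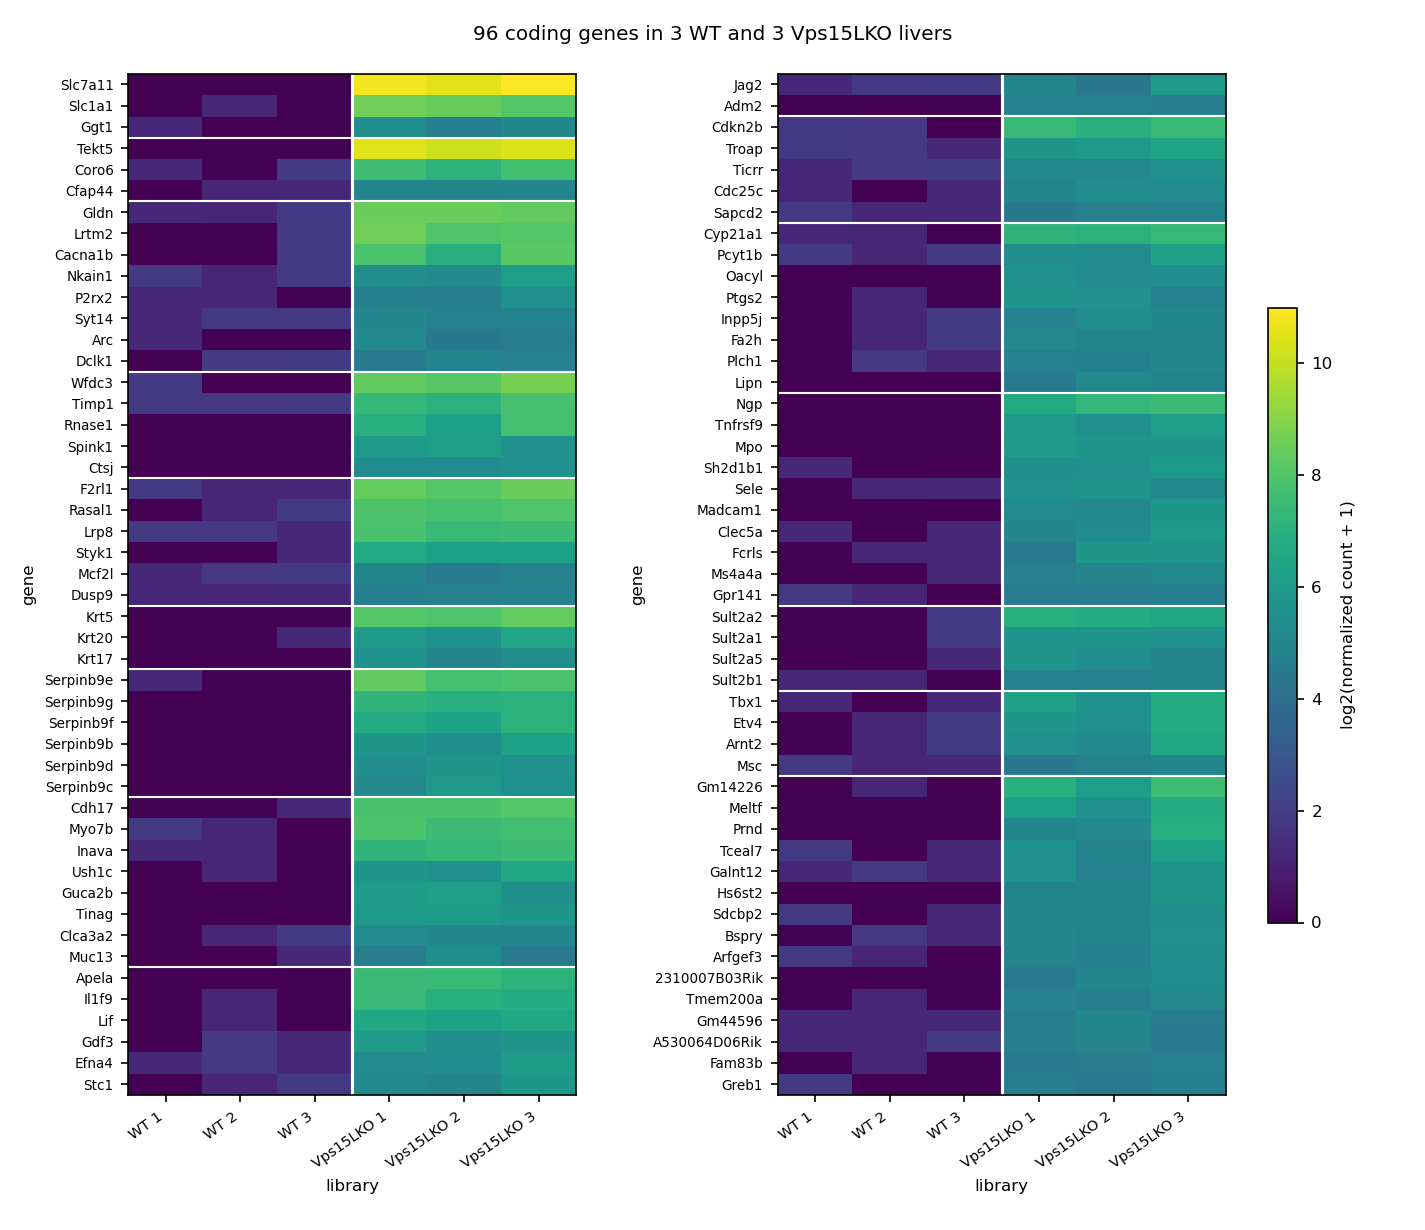
Heat map of log2(normalized count + 1) for the 96 genes (rows) in the 3 WT and 3 Vps15LKO libraries (columns), with white lines between groups of genes by known role and the ungrouped genes last. The WT columns are dark throughout, and Slc7a11 and Tekt5 are the brightest rows.

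The 3 mutant livers were not alike. Vps15LKO replicate 3 was the highest liver for 56 of the 96 genes (58.3%) and replicate 2 the lowest for 56. For the other tested protein-coding genes these shares were 35.6% and 30.5%, but for the 4513 other protein-coding genes called higher they were 55.7% and 48.7%. The order replicate 2, 1, 3 held for 43.8% of the 96 and for 35.8% of those 4513 genes. The summed levels of 6 of the 21 lists, members included, were in the same order of livers. Among them were the biliary list (18605, 22814 and 32474), the fetal liver list (17197, 20959 and 24673), the neutrophil list (10187, 15278 and 17515) and the calcium channel list (888, 1097 and 1224). The calcium channel list and the neuron list, also 1 of the 6, hold the member Cacna1b, and without it the neuron list left that order. Without Lcn2 the neutrophil list left that order, with 827, 671 and 857 in replicates 2, 1 and 3. The macrophage and stellate lists were not in it, and 5 lists had the reverse order, the hepatocyte list (1454592, 1212077 and 987234 in replicates 2, 1 and 3) among them. The part of cell makeup in this order was not tested. The spread among the mutant livers had a median coefficient of variation of 21.2% for the 96 genes against 9.17% for other tested protein-coding genes. At levels up to 100 the medians were 22.0% over 69 of the genes and 15.4% over 2243 others. In 13 genes the highest mutant liver was at least 2 times the lowest, and in 11 of these the highest was replicate 3. Prnd was the most extreme, with 32.1, 35.7 and 117, but 97.2% of its exon bases belong also to the overlapping gene Prn.

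Several features that the rule did not use were examined. Members lay on 20 chromosomes, with 9 on chromosome 13 (6 of them in the Serpinb9 cluster) and 8 on chromosome 4, 5 were on the X and 0 on the Y, and 7 had another member within 100 kb. Exon bases were shared with another annotated gene in 27 members, in Gm44596 entirely with Nrip2, Foxm1 and Tex52, and since no source used here says whether reads were counted by strand, counts from overlapping genes cannot be told apart. For 78 of the 96, no window of 100 transcript bases occurred in another gene.

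RefSeq promoter windows were found for 71 of the 96 genes, 95 windows in all. Their ratio of observed to expected CpG had a median of 0.319, between that of other tested protein-coding genes (0.734) and that of protein-coding genes at most 3 in every library (0.198), and 23.2% of the windows exceeded 0.6 against 65.5% and 12.7%. TGANTCA, the AP-1 site, was in 13.7% of the members' windows on either strand, against 6.99% of all 20139 windows, 5.40% of those of other tested genes and 10.8% of those of genes silent throughout. It occurred in 12 members, among them Lif, Gldn, Sele, Tnfrsf9 and Sult2b1. TGATGNAA, shown above in Slc7a11, was in 3.16% of the members' windows, against 3.40%, 2.29% and 6.19% in the same 3 classes. The core read by Nrf2, TGACNNNGC, was in 15.8% against 13.1%, 14.1% and 10.4%, and GGAATG, read by TEAD factors, was in 17.9% against 13.3%, 12.4% and 15.5%. For TATAAA and for CACGTG, the E-box read by Bmal1 and Clock, the members lay between the last 2 classes. TATAAA was in 9.47% against 12.2%, 7.68% and 24.4%, and CACGTG in 7.37% against 8.03%, 9.63% and 4.65%. No test of these shares was made, and windows of the same gene can overlap.

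**Figure D5:**
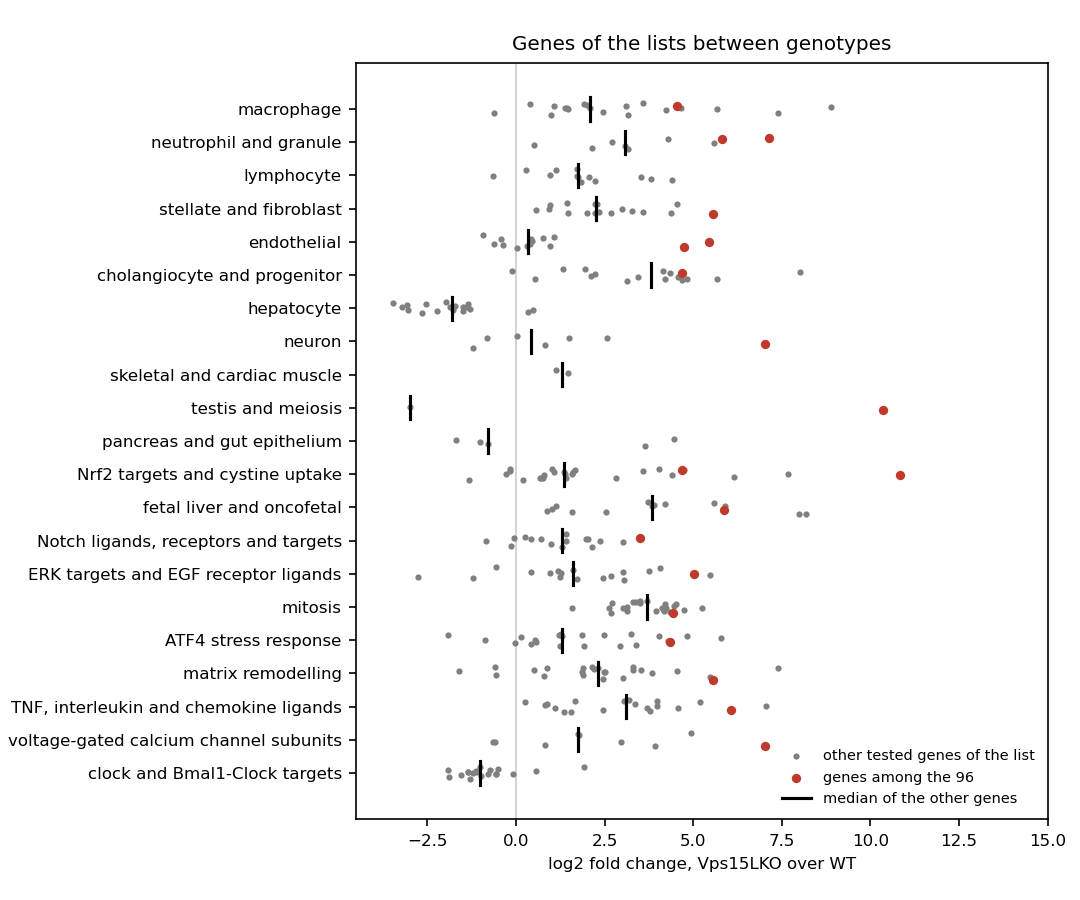
Log2 fold change (Vps15LKO over WT) of the tested genes of each list, with the median of the genes outside the 96 as a black bar and the members of the 96 in red. The rule chose the red genes for this difference. In the testis list Tekt5 is far right while the other tested gene is at -3.00, and the 18 hepatocyte genes have a median of -1.81.

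The clock list, which held none of the 96, had 14 of 19 genes called lower and 1 higher with a median log2 fold change of -1.01, and the Notch list, which held Jag2, had 10 of 15 others called higher and 1 lower. Genes of other RNA types that passed the same thresholds numbered 32. The most counts were assigned to Mir675, a short feature inside the host gene H19, with 1.33, 1.25 and 1.35 in WT and 3756, 2536 and 3356 in Vps15LKO livers. Reads of the H19 RNA and of the microRNA precursor cannot be told apart in these counts, and H19 itself had a log2 fold change of 10.76 (adjusted p = 8.7e-08, limma).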

How the data were processed

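Livers of 3 WT and 3 Vps15LKO mice were compared. The authors filtered reads with SOAPnuke, used HISAT2 for alignment to GRCm38/mm10 and featureCounts for counting, and normalized by DESeq2 size factors; the deposited values are this normalized signal. Strand and multimapping settings are not given in the sources used here. Dividing each library by its smallest step gave whole reads for 100% of the values (tolerance 0.01).

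Gene types, exons and lengths came from GENCODE M21 and promoters from RefSeq (GRCm38.p6), each tied to genes by identifier or symbol. Genes with at least 20 in at least 3 of 6 libraries were tested with limma 3.58.1 (R 4.3.3) on log2(value + 1), so that folds of low genes are understated, with Benjamini-Hochberg adjustment over all 15430 genes. Calls had to pass 0.05 for the adjusted p and 1.2 for the fold. With edgeR 4.0.16 on the recovered reads, 5383 genes were called higher and 4822 lower. DESeq2 1.42.0, voom, other scalings, filters and pseudocounts, and leaving out each library were alternatives. The exact permutation test of 3 against 3 cannot go below p = 0.1. The fits were checked on simulated counts.

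The genes named were the 12 members with the highest level, the 8 highest per kb, members in a list, members within 100 kb of another, genes at the thresholds, and relatives with high WT levels. Members, lists and role groups were chosen with earlier results of these data known. A floor of 3 reads per WT library bounds folds against 0 and covers counting error only.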

Additional observations from a re-analysis of the deposited data

How the results depend on the processing

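The number of genes followed the thresholds. It was 96 as reported, 26 with a WT limit of 0 or of 1, 172 with a limit of 5 and 406 with a limit of 10, and it was 197, 32 and 23 when the Vps15LKO livers had to reach 10, 50 and 100. Applied to whole reads the limits gave 218 genes, applied to group means 233, and after scaling to equal totals of reads 168; each of these held all 96. Leaving out 1 library gave 102 to 146 genes, the most without WT replicate 3. Scaling to equal totals moved the median log2 fold change of all genes from -0.02 to 0.70, with 10300 genes called higher and 1712 lower against 5163 and 5099, 31 list genes called lower against 47, Pik3r4 at 0.19 and Cacna1d at 0.077; the levels of 29 of 37 named members moved by more than 1 SD. Asking for 20 in every library left 121 list genes called higher against 213, since it removes genes silent in WT. Leaving out 1 library gave 4648 to 5152 genes called higher, 4450 to 5070 lower, 202 to 211 list genes higher, 42 to 47 lower and -0.61 to -0.45 for Pik3r4. With a replicate block, 5065 genes were called higher and 4983 lower, and Pik3r4 stayed at -0.54. Same-numbered livers deviated together with correlations of -0.00992, -0.0114 and 0.0485 across genes, and not every liver correlated best with its own number, so the numbers were not taken as pairs. With 3 livers per group and 1 to 2 reads deciding silence in WT, low members are the least certain.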

Other observations

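The reverse pattern, at least 20 in every WT liver and at most 3 in every Vps15LKO liver, held for 16 protein-coding genes. Of these 7 were major urinary protein genes, among them Mup12 with 4011, 5497 and 10853 normalized counts in WT and 0, 0.810 and 0 in Vps15LKO livers. Hsd3b5, a steroid dehydrogenase of male liver, and Elovl3, a fatty acid elongase, were also among them.

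From a list of genes known to be higher in male than in female mouse liver, written after values were seen, 16 were tested and 15 were called lower in Vps15LKO liver (limma), with the same number after scaling to equal totals of reads. Of all genes tested 33.0% were called lower and 33.5% higher, and of the hepatocyte list 15 of 18 were called lower. Mup7 had a log2 fold change of -12.93, Slco1a1, an organic anion carrier, -9.06 and Cyp7b1, an oxysterol hydroxylase, -5.05. Selenbp2 was at -1.71 with an adjusted p of 0.11. Of 13 genes known to be higher in females, 8 were tested. Cyp2a4 (log2 fold change 5.46) and Cux2 (2.26) were called higher, and Cyp17a1 (-2.30), Cyp3a16 (-2.40) and Cyp3a44 (-1.33) were called lower, the last no longer after scaling to equal totals, and Cyp2b9, Cyp3a41a and Acot3 were not called. The other 5 did not pass the filter on low values, and their means were higher in Vps15LKO liver, from 0.858 in WT to 1.59 for Sult3a1 up to 1.34 to 40.1 for Hao2. Livers of the groups overlapped for Sult3a1, Cyp2b13 and A1bg. A1bg had 19.9, 6.25 and 2.70 in WT and 26.7, 57.5 and 2.83 in Vps15LKO livers. All livers were from male mice.

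Next to Mir675, the small RNA genes Gm27483 and Gm27786, annotated on the other strand at the H19 locus of chromosome 7, also passed the thresholds, and their counts cannot be told from those of H19 either.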
